A study of Homo sapiens with 2 samples.

Results

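Intermediate progenitor-like cells and nuclei were picked from 2 split-pool libraries of human brain organoids by 6 marker genes, EOMES, NHLH1, NEUROG1, NEUROG2, PPP1R17 and INSM1. A barcode, which stands for 1 cell or nucleus, had to carry EOMES or NHLH1 and at least 2 of the 6 markers. Barcodes were then ranked by a score, the summed counts of the 6 markers divided by all transcripts of the barcode. The 250 highest scores were taken from the cell library, out of 1283 barcodes that met the marker rule and 6779 that held over 5000 transcripts with at most 20% of them mitochondrial (3.69% of those passing). In the nuclear library only 227 of 11375 passing barcodes (over 2000 transcripts, the same mitochondrial limit) met the marker rule, fewer than 250, so all of them were members (2.00%). Together this gave 477 members among 18154 passing barcodes. All other passing barcodes formed the reference, 6529 cells and 11148 nuclei.

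The organoids were grown from H9, an established human embryonic stem cell line, so every sample came from 1 line. The cell library pooled control cerebral organoids (CO) at days 45, 55 and 70, organoids that were broken down to single cells at day 45 and left to reaggregate (DISS) at days 48, 55 and 70, and organoids freed of Matrigel and held in 3% low-gelling agarose from day 13 (CONS) at day 55. The nuclear library held nuclei of CO at day 45 that were isolated either from intact organoids or from their single-cell suspension, although its treatment label reads control, dissociated and embed. Each library carried a single sample name for all of its barcodes, so no barcode could be assigned to a condition, day or organoid, each library counted as 1 sample, and differences within it have no replicate check. All intervals given are exact 95% intervals and cover counting error only. The cell library held 254967545 transcripts over 1303455 barcodes and the nuclear library 82339738 over 197446, most of them below the depth limit, and passing barcodes had a median depth of 10774 and 4658 transcripts.

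Intermediate progenitors are the transit cells between radial glia, the stem cells that line the ventricle of the developing cortex, and excitatory neurons. They leave the ventricular surface, divide a limited number of times in the subventricular zone and give rise to projection neurons. EOMES (TBR2) is the T-box factor by which they are usually recognized. NEUROG1 and NEUROG2 are proneural basic helix-loop-helix (bHLH) factors, NHLH1 is a bHLH factor of newly committed cells, INSM1 is a zinc finger factor needed for basal progenitors, and PPP1R17 is a phosphatase inhibitor found in human intermediate progenitors.

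Proneural bHLH factors bind E-box letters such as CAGATG and CAGCTG, and HES repressors bind letters of the form CACNAG. Promoter windows of 250 bases before the annotated start are shown for 3 genes that were high in member cells (NHLH1, which the selection used, NEUROD4 and HES6) and for HES1, the Notch target that was at least 2-fold lower in member cells but not in member nuclei (RefSeq, GRCh38.p14). The windows were chr1:160366821-160367070 on the plus strand for NHLH1, chr12:55019724-55019973 on the plus strand for NEUROD4, chr2:238240039-238240288 on the minus strand for HES6, and chr3:194135898-194136147 on the plus strand for HES1. Each is written 5′ to 3′ on the strand of its gene. Capitals mark these 3 motifs on either strand. CAGATG reads CATCTG on the other strand, the motif CAGCTG reads the same on both, and CACNAG reads CTNGTG on the other strand.
NHLH1: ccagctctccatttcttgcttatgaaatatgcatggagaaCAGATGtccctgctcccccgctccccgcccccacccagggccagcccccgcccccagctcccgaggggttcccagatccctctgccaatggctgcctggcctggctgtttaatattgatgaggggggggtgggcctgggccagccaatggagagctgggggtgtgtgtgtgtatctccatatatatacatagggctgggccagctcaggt
NEUROD4: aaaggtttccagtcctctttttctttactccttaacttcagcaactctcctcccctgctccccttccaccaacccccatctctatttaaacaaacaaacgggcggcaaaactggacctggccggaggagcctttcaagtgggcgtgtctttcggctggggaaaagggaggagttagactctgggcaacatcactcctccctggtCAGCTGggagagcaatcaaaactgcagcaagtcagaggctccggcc
HES6: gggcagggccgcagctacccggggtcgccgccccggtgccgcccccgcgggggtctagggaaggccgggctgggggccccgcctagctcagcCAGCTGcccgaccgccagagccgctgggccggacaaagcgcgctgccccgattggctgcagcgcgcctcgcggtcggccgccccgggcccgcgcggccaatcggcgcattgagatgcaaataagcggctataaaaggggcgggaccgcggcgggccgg
HES1: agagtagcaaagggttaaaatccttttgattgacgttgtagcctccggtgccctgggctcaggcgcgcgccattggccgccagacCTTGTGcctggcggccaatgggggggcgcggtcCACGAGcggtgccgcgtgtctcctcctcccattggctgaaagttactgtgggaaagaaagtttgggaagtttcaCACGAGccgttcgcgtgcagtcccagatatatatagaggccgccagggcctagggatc
The NHLH1 window held 1 CAGATG, 210 bases before the start. NEUROD4 and HES6 each held 1 CAGCTG, 46 and 158 bases before it. HES1 held 3 CACNAG, at 165, 132 and 58 bases. The windows of EOMES, NEUROG1 and NEUROG2 held none of these letters. Of 38 genes looked up (the 6 markers, the genes that act with the proneural factors, DLL1, DLL3, MFNG, HES1 and the 15 that stood highest in both libraries), 26 had a window and 20 of these a single start, and 7 of the 20 held CAGATG or CAGCTG, the selection markers NHLH1 and PPP1R17 among them. Over the whole table of 35116 windows, in which a gene can have several, 12.2% held CAGATG, 14% CAGCTG, 24.3% either and 32.0% CACNAG, and the share among the 20 is not compared with these. A match of letters describes the window only.

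The values that chose the members are given as a description. In the cell library the score of members was 43.6 counts per 10000 transcripts at the highest, 8.21 at the median and 5.67 at the lowest. The last 3 cells inside the limit scored 5.68, 5.68 and 5.67 and the first 3 outside scored 5.67, 5.66 and 5.65, so the limit cut through a continuous range. There were 30 members within 10% above the lowest score and 49 cells that met the marker rule within 10% below it. The 1033 cells that met the marker rule without reaching the limit stayed in the reference. In the nuclei, which had no such limit, the score ran from 13.9 over a median of 3.63 to 0.217 per 10000. Background RNA, the pool of barcodes with 10 to 100 transcripts, scored 1.05 in the cell library and 0.278 in the nuclear library, and 1 nucleus but no cell among the members was at or under that level.

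**Figure D1:**
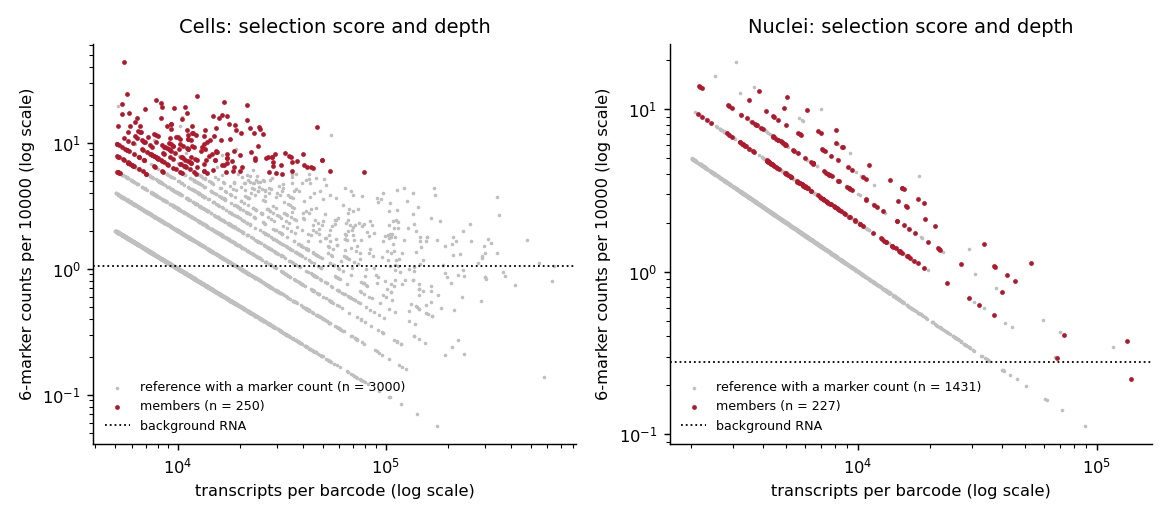
Selection score (counts of the 6 markers per 10000 transcripts, log scale) against depth (transcripts per barcode, log scale) for members (red) and for reference barcodes with at least 1 marker count (gray), with the level of background RNA as a dotted line. The 250 member cells form the top of a continuous cloud above 5.67, whereas the 227 member nuclei lie on the lines of 2 or more counts and reach down to 0.217.

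Pooled over members, EOMES stood at 3.09 per 10000 in cells and 0.867 in nuclei, against 0.167 and 0.0479 in the reference. NHLH1 stood at 2.63 against 0.240 in cells and at 0.749 against 0.0506 in nuclei. NEUROG2 was at 1.67 against 0.339 and 0.562 against 0.104. The rarest were INSM1, at 0.274 and 0.0475 in members of the 2 libraries, and NEUROG1, at 0.224 and 0.0317. Most member cells carried 3 markers or more (103 cells with 3, 67 with 4, 16 with 5, 4 with all 6 and 60 with 2). Member nuclei were thinner in this respect, as 195 of 227 carried exactly 2 markers, 28 carried 3 and 4 carried 4. EOMES and NHLH1 were seen together in 157 member cells (62.8%) and in 81 member nuclei (35.7%).

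Members differed from the reference in depth in the nuclei more than in the cells. The median member cell held 10317 transcripts and 3976 genes, against 10805 and 4397 in the reference. The median member nucleus held 7051 transcripts and 2935 genes, against 4624 and 2343, a ratio of 1.52 in depth. The marker rule needs counts, and its part in the depth difference was not tested. The deepest member nucleus, at 138422 transcripts, supplied 5.48% of all counts of the nuclear members. In the cell library 405 reference barcodes held over 50000 transcripts each and supplied 35.3% of the pooled reference counts, whereas 2 member cells were that deep. In nuclei 14 such reference barcodes supplied 1.64%, and 5 members were that deep. Mitochondrial transcripts were a median 2.20% in member cells against 2.28%, and 0.172% in member nuclei against 0.0854%. The doublet caller Scrublet marked 0 barcodes in either library. Whether it set a limit for calling was not recorded, so only its scores were used. Among the barcodes with the highest doublet scores, 339 cells and 341 nuclei, there were 7 member cells (2.80%) and 17 member nuclei (7.49%). These barcodes made up 5% of passing cells and 3% of passing nuclei, so high doublet scores were more frequent in member nuclei than in all nuclei, and less frequent in member cells. Full barcode names shared by passing cells and passing nuclei numbered 19, and 96 when the sub-library was ignored.

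Genes were compared by their pooled counts per 10000 transcripts where the joint rate of members and reference predicted at least 10 counts in the members, and a gene was called at a ratio of 2 or more. In the cells, 278 of 16557 genes were at least 2-fold higher in members (1.68%) and 1694 at least 2-fold lower (10.2%), with a median log2 ratio of -0.16 over all genes compared. Dividing by that median gave 433 higher and 1291 lower. Leaving out barcodes over 50000 transcripts gave 283 higher and 1881 lower. In the nuclei, 106 of 13526 genes were higher (0.784%) and 388 lower (2.87%), with a median of -0.05. With every nucleus given the same weight in place of the pool, 232 were higher and 1128 lower. For genes higher in members the interval of the ratio lay above 1 in all 278 and all 106. The count filter and the 2-fold limit together fixed that outcome, so it is no check. The interval lay above 2 for 161 and 52 of them. For genes lower in members the interval lay below 1 in 1615 of 1694 in cells and 352 of 388 in nuclei, and past 2-fold in 442 and 43, so most lower calls did not clear 2-fold beyond counting error. Of the 6 markers, 5 in cells (not NEUROG1) and 4 in nuclei (neither NEUROG1 nor INSM1) had enough counts to enter.

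Across 13387 genes compared in both libraries, 203 were higher in member cells and 105 in member nuclei, and 72 were higher in both, 35.5% of the first and 68.6% of the second. These counts hold the 4 selection markers compared in both, which the selection itself made high. On the lower side 1206 and 379 genes had 195 in common, 16.2% and 51.5%. Over all genes compared in each library, 1.68% in cells and 0.784% in nuclei were higher, and 10.2% and 2.87% lower. The log2 ratios of 13383 genes, markers left out, had Pearson's r = 0.56 and Spearman's rho = 0.51. These are correlations across genes of 2 libraries, and genes are not independent replicates.

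**Figure D2:**
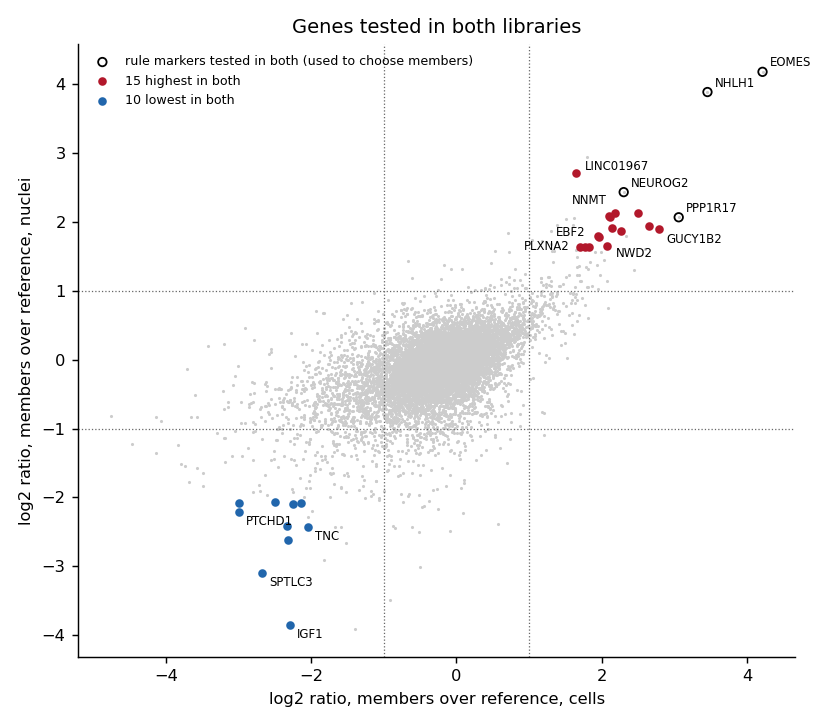
Log2 ratio of members over reference in cells (x) and nuclei (y) for genes compared in both libraries, with dotted lines at 2-fold. The 15 highest (red) and 10 lowest genes (blue) lie past 2-fold in both, beside the 4 selection markers compared in both (open circles), EOMES and NHLH1 farthest out.

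The genes that stood highest in both libraries, ranked by the smaller of the 2 ratios among 55 with a symbol that were past 2-fold in both, began with NNMT, which encodes nicotinamide N-methyltransferase. NNMT was at 0.350 per 10000 in member cells against 0.0768, 4.56-fold (3.74 to 5.52), and at 0.257 against 0.0586 in nuclei, 4.40-fold (3.33 to 5.73). In the cells its level ran from 0.124 to 0.518 over the 8 sub-libraries of members and from 0.0603 to 0.107 in the reference, so the ranges did not overlap. Sub-libraries are portions of 1 cell pool and show technical spread only. Genes named for their ratios were chosen on these same counts, so such a gap is a description.

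SLCO4C1, an organic anion transporter, was 5.66-fold higher in cells and 4.37-fold in nuclei. GUCY1B2 was 6.90-fold and 3.74-fold higher. LZTS1, a leucine zipper protein that takes part in the detachment of differentiating cells from the apical surface, was 4.42-fold (4.17 to 4.68) and 3.75-fold (3.44 to 4.08) higher. It is among the more abundant of these genes, at 3.89 per 10000 in member cells against 0.880.

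Also in the first 15 were the long noncoding RNAs LINC02487 (6.26-fold in cells, 3.85-fold in nuclei) and LINC01967 (3.14-fold and 6.54-fold). With 3 markers required, which left 32 nuclei, the nuclear log2 ratio of LINC02487 turned from 1.95 to -1.26. LINC01967 lies on chromosome 3 (27916774 to 28059268, minus strand, GRCh38), and its annotated start is 337 kb from that of EOMES on the same strand. When EOMES was left out of the selection, LINC01967 stayed past 2-fold, at a log2 ratio of 1.12 in cells and 1.52 in nuclei in place of 1.65 and 2.71. The LIM homeobox factor gene LHX9 was 3.87-fold and 3.46-fold higher, the latter past 2-fold in 19 of 22 settings and down to a log2 ratio of 0.69 with EOMES left out. NWD2 was 4.20-fold and 3.13-fold higher. PDE1C, a calmodulin-dependent phosphodiesterase, was 3.54-fold and 3.12-fold higher, and CHST8, a carbohydrate sulfotransferase, 3.26-fold and 3.10-fold. HES6, DLL3, MFNG, EBF2 and PLXNA2 completed the 15 and are described with their groups.

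The 10 genes lowest in members in both libraries, of 184 past 2-fold, were led by SPTLC3, a serine palmitoyltransferase subunit. It was 6.39-fold lower in cells and 8.55-fold lower in nuclei. COL21A1 was 5.03-fold and 5.32-fold lower, HSD17B2, a steroid dehydrogenase, 5.00-fold and 6.12-fold, and the potassium channel gene KCNH5 4.77-fold and 4.27-fold. PTCHD1 (7.95-fold and 4.62-fold), PRKCQ (4.41-fold and 4.25-fold) and the endocytic adaptor DAB2 (5.65-fold and 4.18-fold) followed. TNC, the tenascin C of outer radial glia, was 4.13-fold and 5.38-fold lower. Counts behind these values were low, at most 25 in the members of a library. FLVCR2 rested on 2 counts in member cells and 4 in member nuclei, with ratios of 0.125 (0.0151 to 0.455) and 0.237 (0.0642 to 0.610). IGF1 rested on 10 counts in cells, with a ratio of 0.204, and on 1 count in nuclei, with a ratio of 0.0693 (0.00175 to 0.388).

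Genes that act with the proneural factors had most of their number higher in members. Of 14 such genes compared in cells, 12 were at least 2-fold higher, with a median log2 ratio of 1.60 against -0.16 over all genes, and 7 of 9 were higher in nuclei, with a median of 1.22 against -0.05. No gene of this group was 2-fold lower. The shares of all genes were 1.68% higher and 10.2% lower in cells, and 0.784% and 2.87% in nuclei. NEUROD4, a bHLH factor downstream of the neurogenins, was at 0.756 per 10000 in member cells and 0.0716 in the reference, 10.6-fold (9.16 to 12.2). Sub-libraries of member cells ran from 0.296 to 1.06 and those of the reference from 0.0595 to 0.0814, with no overlap. In nuclei NEUROD4 had too few counts to enter, at 0.107 against 0.0245. HES6, which opposes HES1, was 4.30-fold (3.75 to 4.91) higher in cells and 4.27-fold (3.18 to 5.64) in nuclei, but with 3 markers required its nuclear log2 ratio was 0.16 over 32 nuclei.

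The growth arrest gene GADD45G was 3.80-fold higher in cells and the RNA-binding protein gene ELAVL2 4.08-fold in cells and 2.72-fold in nuclei. NEUROD1, which follows the neurogenins in many lineages, was 2.48-fold and 2.99-fold higher. NHLH2, the close relative of NHLH1, was at a ratio of 1.11 in cells, and RASGRP1 at 1.76.

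After each barcode was thinned to 2000 transcripts, NEUROD4 was seen in 12.8% of member cells (8.92 to 17.6) and in 0 of 250 choroid plexus-like cells, which allows a share of up to 1.46%, and HES6 in 10.8% (7.24 to 15.3) against 1.60%. The choroid plexus-like sets, 250 barcodes of each library with the highest score for genes of that epithelium, stand for cells that should lack such genes. Their median depth was 13947 transcripts in cells and 8512.5 in nuclei, above the 10317 and 7051 of members. Without thinning, NEUROD4 was seen in 43.6% of member cells and 0.8% of choroid plexus-like cells, and HES6 in 43.2% and 5.20%. In thinned radial glia-like and neuron-like cells NEUROD4 was seen in 0.8% and 0.4%. HES6 was seen in 2.00% and 4.00% (1.93 to 7.23) of them, the latter reaching close to the interval of members. In thinned nuclei NEUROD4 was seen in 2.20% of members (0.719 to 5.07) and 0.4% of choroid plexus-like nuclei (0.0101 to 2.21), intervals that overlap. HES6 was seen in 6.17% of member nuclei (3.41 to 10.1) and in 0 of 250 choroid plexus-like nuclei, which allows up to 1.46%, but also in 2.00% of radial glia-like (0.653 to 4.61) and 1.60% of neuron-like nuclei (0.438 to 4.05), whose intervals overlap that of members. Without thinning these were 10.6% and 0.4% for NEUROD4, and 17.6% and 0 for HES6.

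Notch signaling passes between neighboring cells. Committed progenitors carry the ligands, and radial glia carry the receptors and answer with HES genes. Among ligands and modulators, 3 of 11 genes compared in cells and 3 of 10 in nuclei were at least 2-fold higher in members and none was lower, with medians of 0.52 and 0.34. They were the same genes, DLL1, DLL3 and MFNG, beside 1.68% of all genes higher in cells and 0.784% in nuclei. The nuclear count of 3 became 1 without either sub-library or with NHLH1 left out of the selection, and 0 with 3 markers required or EOMES left out, while the nuclear ratio of DLL3 itself stayed past 2-fold in 22 of 22 settings and that of MFNG in 21. DLL1, an activating ligand, was at 1.99 per 10000 in member cells against 0.578, 3.44-fold (3.18 to 3.72), and its sub-libraries ran from 1.21 to 3.24 in members and from 0.537 to 0.646 in the reference. In nuclei DLL1 was at 0.852 against 0.335, 2.55-fold (2.20 to 2.93). Its nuclear log2 ratio fell from 1.35 to 0.69 with 3 markers required and to 0.68 with EOMES left out of the selection.

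DLL3, a ligand that acts within the cell, was 4.32-fold and 4.21-fold higher. MFNG, a sugar transferase that modifies Notch, was 4.80-fold and 3.64-fold higher. The ligand JAG1 was within 2-fold of the reference, at ratios of 0.938 and 0.665, as was the Notch inhibitor NUMB, at 0.972 and 1.06. DLL4 had too few counts to enter, with 46 in member cells, at 0.135 per 10000 against 0.0174. In thinned barcodes DLL1 was seen in 26% of member cells (20.7 to 31.9) and 20.7% of member nuclei (15.6 to 26.6), against 1.60% and 2.00% of choroid plexus-like barcodes, and without thinning in 54.4% and 44.9% against 16.4% and 8.80%. Other sets stood nearer to members. Thinned shares were 8.4% of radial glia-like, 7.6% of neuron-like and 9.05% of reference cells, and 4.4%, 6.4% and 5.85% of those nuclei.

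Receptors and targets of Notch held no gene called higher. In cells 0 of 9 were 2-fold higher and 2 were lower, with a median of -0.74, against 1.68% and 10.2% of all genes. In nuclei 0 of 8 were past 2-fold either way, with a median of -0.09, against 0.784% of all genes higher and 2.87% lower. By these shares a count of 0 higher says little about a list this short. HES1, the main repressor that Notch switches on, was at 0.229 in member cells against 0.881, 3.84-fold lower, and its sub-libraries (0.0942 to 0.370) lay below those of the reference (0.776 to 0.966). In nuclei it was at 0.143 against 0.218, a ratio of 0.655 (0.457 to 0.911). NOTCH3 was 2.20-fold lower in cells and at a ratio of 0.808 in nuclei. NOTCH1 was level with the reference in both libraries, with ratios of 1.01 (0.92 to 1.11) and 0.958 (0.847 to 1.08). HES5 was at 1.44 in cells and 1.01 in nuclei.

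Members were next set beside 250 radial glia-like and 250 excitatory neuron-like barcodes of each library, the highest scores for 6 markers of each type among barcodes that were not members. Against radial glia-like cells, 1572 of 15830 genes were higher in members (9.93%) and 1770 lower (11.2%). Against neuron-like cells, 1431 of 15643 were higher (9.15%) and 1127 lower (7.2%). In nuclei these were 1577 (11.8%) and 820 (6.12%) of 13399 against radial glia-like nuclei and 2379 (17.9%) and 908 (6.83%) of 13285 against neuron-like nuclei. Genes that chose these sets are left out of the radial glia and newborn neuron counts against them, while counts and sums against the reference keep the full lists.

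Radial glia genes lay between the sets, which were picked as the highest for markers of each type, and the reference lay between them too. Of 9 such genes, 6 were at least 2-fold lower in member cells than in radial glia-like cells (median log2 -1.09) and 7 were higher than in neuron-like cells (1.85). In nuclei 6 of 9 were lower (-1.52) and 9 of 9 higher (2.20). The intermediate filament gene VIM stood at 3.38 per 10000 in radial glia-like cells, 0.847 in members and 0.434 in neuron-like cells, and ID4, an inhibitor of bHLH factors, at 2.65, 0.359 and 0.141. Against the whole reference the group lay closer, with 0 of 14 higher and 2 lower in cells (VIM and ID4, median -0.29) and none past 2-fold in nuclei (median -0.23). Over all genes 1.68% were higher and 10.2% lower in cells (median -0.16), and 0.784% and 2.87% in nuclei (-0.05). By these shares the counts say little about the list. The 2 lower genes in cells became 0 with 500 members or the higher depth limit, and the 0 in nuclei became 5 with 150 members. Summed over the 14 genes, members and reference stood at 38.3 and 37.9 per 10000 in cells, between 98.5 in radial glia-like and 7.61 in neuron-like cells. In nuclei they stood at 41.7 and 43.6, between 105.5 and 4.70. A place between the sets is thus not particular to members. DACH1, a long gene of cortical progenitors, was at 1.44 times the reference in cells and 1.16 in nuclei.

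Newborn neuron genes lay above radial glia-like and below or near neuron-like barcodes. Of 11, 10 were higher in member cells than in radial glia-like cells (median log2 2.87) and 2 were lower than in neuron-like cells (-0.49), and in nuclei 8 were higher (2.76) and 5 lower with 1 higher (-0.32). Against the reference 5 of 14 were higher in cells and 1 lower (median 0.65), and 1 of 14 was higher in nuclei (median 0.39). Over all genes 1.68% and 0.784% were higher, and 10.2% lower in cells, so 1 call in a list this short says little. Summed over the 14 genes, the reference also lay between the sets, at 24.8 per 10000 in cells (8.16 and 64.4 in the sets) and 14.1 in nuclei (5.79 and 35.7). Members were at 53.1 and 19.95. SOX4, an early neuronal HMG-box factor, was at 1.88 per 10000 in radial glia-like cells, 16.9 in members and 12.2 in neuron-like cells. Its partner SOX11 was at 2.53, 13.7 and 8.47. In nuclei SOX4 was at 0.836, 2.44 and 3.02, so that members did not stand highest there. CNTN2, an axonal adhesion protein, was 3.48-fold above the reference in cells and 2.08-fold in nuclei, and the nuclear value dropped under 2-fold without 1 of the sub-libraries (log2 0.76).

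Genes of more mature neurons were highest in neuron-like barcodes. MAPT (tau) was at 0.353, 1.16 and 3.67 per 10000 in radial glia-like, member and neuron-like cells, and GAP43, a growth cone protein, at 0.578, 1.46 and 2.84. The synaptic gene SNAP25 was at 0.203, 0.712 and 1.66. Of 12 synapse genes, 7 were 2-fold lower in member cells than in neuron-like cells and none higher (median log2 -1.24), and 7 of 12 were higher than in radial glia-like cells (1.68). In nuclei 7 were lower (-1.40) and 10 higher (2.99). The reference lay between the sets as well, with synapse genes summed to 30.2 per 10000 in cells and 32.2 in nuclei, against 35.8 in members of each library. SCN2A, a sodium channel, was 5.81-fold and the glutamate receptor gene GRIA2 5.27-fold lower in member cells than in neuron-like cells.

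**Figure D3:**
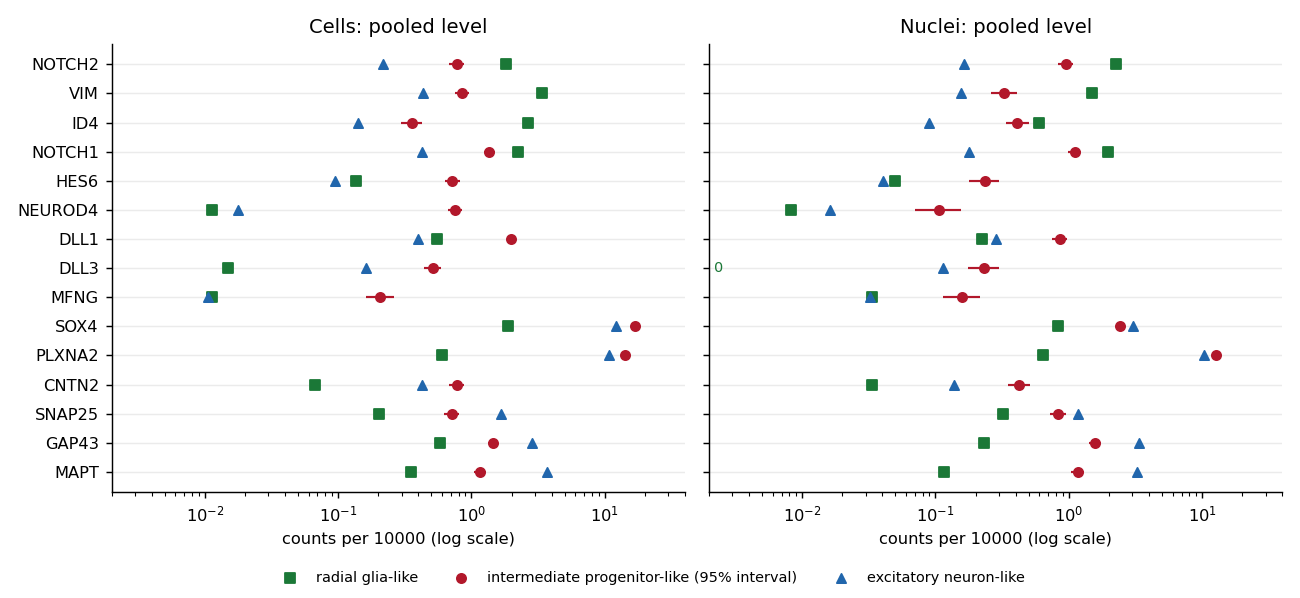
Pooled level (counts per 10000 transcripts, log scale) of 15 genes in radial glia-like barcodes (squares), members (circles, with 95% counting intervals) and excitatory neuron-like barcodes (triangles), cells on the left and nuclei on the right, with 0 marking no count. NOTCH2, VIM, ID4 and NOTCH1 descend over the 3 sets, MAPT, GAP43 and SNAP25 ascend, and HES6, NEUROD4, DLL1, DLL3 and MFNG are highest in members. The radial glia-like and neuron-like sets were picked as the highest for their own markers, and the reference is not drawn.

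Genes of migration and guidance were partly higher. Of 12 compared in cells, 6 were higher and 2 lower than in the reference (median log2 0.74), and 3 of 10 were higher in nuclei (0.43). Over all genes 1.68% in cells and 0.784% in nuclei were higher, and 10.2% in cells lower, so 2 of 12 lower says little by itself. PLXNA2 and PLXNA4, receptors for semaphorins, were 3.41-fold and 3.22-fold higher in cells and 3.12-fold and 2.34-fold in nuclei, and their partner NRP1 3.76-fold and 2.95-fold. PLXNA2 was at 14.1 per 10000 in member cells, with sub-libraries from 12.2 to 17.6 against 4.01 to 4.42 in the reference. It was at 0.601 in radial glia-like cells and 10.8 in neuron-like cells. NRP1 was 7.10-fold above radial glia-like and 9.23-fold above neuron-like cells.

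RND3, a small GTPase of migrating neurons, was 2.77-fold higher in cells and at 1.33 in nuclei, and the SLIT receptors ROBO1 and ROBO2 were 2.05-fold and 2.01-fold higher in cells. DAB1, the adaptor for reelin, was 3.35-fold lower in cells (2.4 against 8.04 per 10000) and at a ratio of 0.737 in nuclei. The second gene lower in cells, CXCR4, rested on 1 count.

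Most delamination genes were within 2-fold of the reference. SCRT2, a SNAIL-family repressor, was higher in both libraries (2.42-fold and 2.30-fold), and its relative SCRT1 in cells (2.37-fold). These were the 2 of 12 genes called in cells (median 0.24) and the 1 of 11 in nuclei (0.01), beside 1.68% and 0.784% of all genes called higher. AKNA, the centrosomal factor of delamination, was at 1.61 and 1.12, and CDH2, the adherens junction cadherin, at 0.998 and 1.00.

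Cycle genes differed between the libraries in their distance from the reference. None of 16 G2/M genes was 2-fold higher in either library. Over all genes 1.68% in cells and 0.784% in nuclei were, so 0 of 16 says little by itself. The G2/M median log2 ratio was -0.70 in cells, with HMMR past 2-fold lower, and 0.06 in nuclei with none past 2-fold. The proliferation marker MKI67 was at 1.43 per 10000 in member cells against 2.16, and at 1.56 in member nuclei against 1.54. CENPF, a kinetochore protein, was at 1.31 against 2.45 and at 1.89 against 1.77. Of 16 S phase genes none was past 2-fold either way, with medians of -0.34 and -0.10. Whether the libraries differ could not be tested with 1 sample each.

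After thinning to 2000 transcripts, 16.8% of member cells (12.4 to 22) and 22.9% of member nuclei (17.6 to 28.9) held at least 2 G2/M genes, against 29.7% and 22.7% of the reference. Without thinning these shares of members were 59.2% and 38.8%. Radial glia-like barcodes reached 47.2% (40.9 to 53.6) in cells and 28.0% (22.5 to 34.0) in nuclei, and only the nuclear interval overlaps that of members. Neuron-like barcodes reached 5.20% and 2.4%. Median depths of these sets were 9103.5 and 9059.5 transcripts in cells and 4248.5 and 4352 in nuclei. Against radial glia-like barcodes, 14 of 16 G2/M genes were 2-fold lower in member cells (median log2 -1.39) and 0 of 16 in member nuclei (-0.02), beside 11.2% and 6.12% of all genes. Choroid plexus-like barcodes, from an epithelium with little division, reached 12.8% (8.92 to 17.6) in cells, which overlaps the interval of member cells, and 5.6% (3.10 to 9.22) in nuclei, which does not overlap that of member nuclei. G2/M genes summed to 7.44 per 10000 in member cells and 12.5 in background RNA, whose part in the member share was not tested. That share in cells was 24.4% with the higher depth limit and 28.0% with NHLH1 left out of the selection.

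At least 2 S phase genes were seen in 30% of member cells (24.4 to 36.1) and 35.2% of member nuclei (29.0 to 41.8), against 37.1% and 35.6% of the reference. Radial glia-like barcodes reached 66.0% and 48.4%, and neuron-like barcodes 9.20% and 4.80%. Choroid plexus-like barcodes were at 16.0% (11.7 to 21.1) and 6.4% (3.70 to 10.2), below the intervals of members in both libraries. Without thinning, S phase shares were 83.2% and 60.4% of members and 71.6% and 36.8% of choroid plexus-like barcodes.

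Of genes of cycle exit, CDKN1C, a cyclin-dependent kinase inhibitor, was 2.05-fold higher in member cells, the 1 call of 10 (median 0.49), and 0 of 7 were called in nuclei (-0.06). With 1.68% and 0.784% of all genes higher, such counts say little by themselves. CCND2, the D cyclin of cortical progenitors, was at 1.41 in cells and 0.990 in nuclei.

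Members were split by the 2 genes that admit a barcode, which separates them by detection and not by type. In cells 39 had EOMES without NHLH1, 157 both and 54 NHLH1 without EOMES. In nuclei these were 72, 81 and 74. Their median depths were 7656, 11596 and 8648 transcripts in cells and 7189.5, 6041 and 7362 in nuclei. After thinning, the share with at least 2 G2/M genes was 23.1% (11.1 to 39.3), 17.8% and 9.26% (3.08 to 20.3) in that order in cells, and 34.7% (23.9 to 46.9), 22.2% and 12.2% (5.71 to 21.8) in nuclei. These shares describe barcodes of 1 library each, split by genes that the selection used, and are no test.

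Summed G2/M counts were at 12.7 per 10000 in EOMES-only cells and 4.46 in NHLH1-only cells, 2.84-fold (2.42 to 3.34), and higher in 7 of 8 sub-libraries, with 1 cell holding 24.9% and 32.1% of the counts of its subset. The interval takes counts as independent, although they come from few cells. In nuclei they were at 14.8 and 8.81, 1.68-fold (1.52 to 1.86), and higher in 2 of 2. Members with both genes lay between, at 7.38 in cells and 10.5 in nuclei. S phase genes were 1.33-fold and 1.38-fold higher on the EOMES side and radial glia genes 1.25-fold and 1.37-fold, each in 5 of 8 sub-libraries of cells and 2 of 2 of nuclei. The radial glia sum was highest in members with both genes, at 39.9 per 10000 in cells against 38.7 and 30.9, and at 46.6 in nuclei against 44.3 and 32.2. Synapse genes were 1.32-fold (1.23 to 1.43) and 1.29-fold (1.22 to 1.36) higher on the NHLH1 side, and newborn neuron genes 1.21-fold and 1.1-fold. With both genes the newborn neuron sum was 51.9 per 10000 in cells, between 49.9 and 60.3. In nuclei it was 18.7, below both outer subsets (19.8 and 21.8). Layer genes as a sum had ratios of 1.03 (0.963 to 1.11) and 0.966 (0.919 to 1.02), with the EOMES side higher in 5 of 8 and 1 of 2 sub-libraries.

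Markers of other cell types also differed between the subsets. Cajal-Retzius genes in cells were at 1.69 per 10000 in EOMES-only and 5.30 in NHLH1-only members, 3.13-fold (2.36 to 4.23) higher in the latter, with 3.50 in members with both genes, while in nuclei they were at 5.37 and 5.49, with 6.59 in members with both. Most of the difference in cells was EBF2, at 0.467 and 3.49. RELN (0.408 and 0.275) and TP73 (0.233 and 0.0183, the latter 1 count) went the other way. Choroid plexus genes in nuclei were at 4.83 and 14.3, 2.96-fold (2.62 to 3.36) higher in NHLH1-only nuclei, and at 19.1 in nuclei with both genes, above either, with 1 nucleus holding 47.4% and 44.6% of the counts in the outer subsets. In cells they were at 3.59 and 3.21, and at 4.02 in cells with both. Hem genes in nuclei were at 2.02 in EOMES-only, 2.41 in double and 1.36 in NHLH1-only members. In cells their ratio of EOMES-only to NHLH1-only members was 1.23 (0.871 to 1.72), but the former were higher in only 2 of 8 sub-libraries and 1 cell held 35.9% of their counts. Their part in the other differences between the subsets was not tested.

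**Figure D4:**
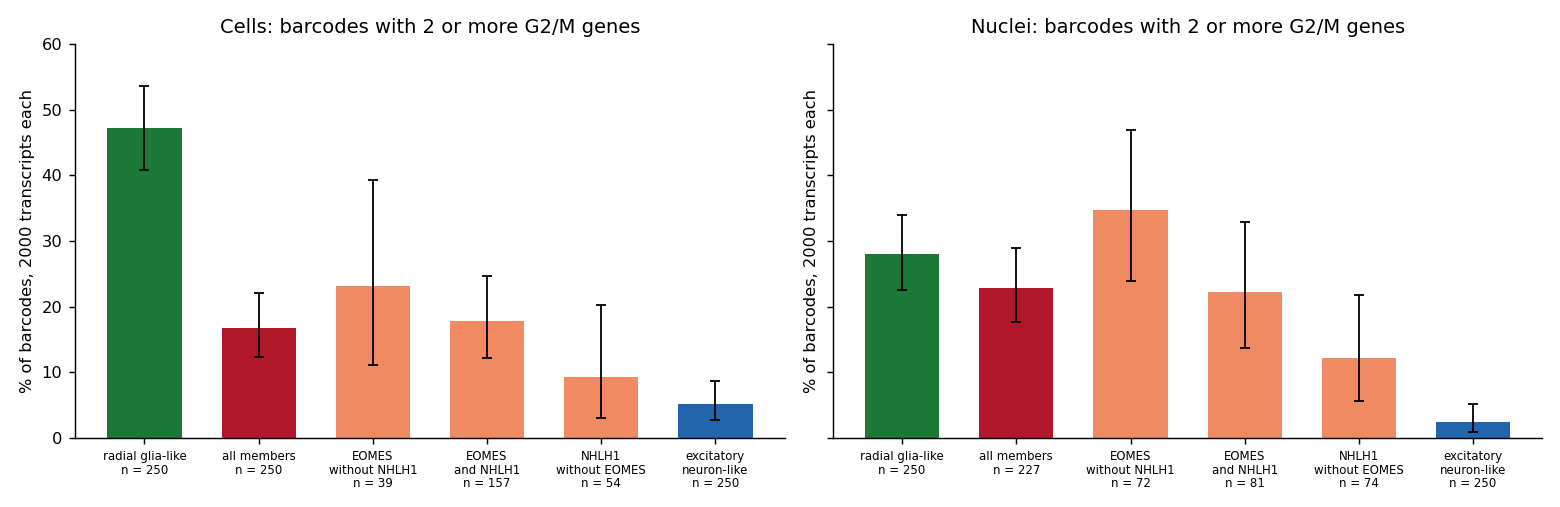
Share of barcodes with at least 2 of 16 G2/M genes after thinning to 2000 transcripts, with exact 95% intervals, for radial glia-like barcodes, all members, members split by EOMES and NHLH1, and neuron-like barcodes. From EOMES-only to NHLH1-only members the share goes from 23.1% to 9.26% in cells and from 34.7% to 12.2% in nuclei.

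Single genes that differed most between these subsets in the same direction in both libraries, of 6074 with enough counts, were MIR924HG, PARPBP and RRM1 on the EOMES side. MIR924HG was 4.77-fold and 3.51-fold higher. PARPBP, a PARP1-binding protein of DNA repair, was 5.00-fold and 3.17-fold higher, and RRM1, a ribonucleotide reductase subunit used in DNA synthesis, 3.58-fold (1.75 to 7.75) and 2.79-fold (1.5 to 5.46). On the NHLH1 side stood EBF3, BCHE and TBR1. TBR1, the T-box factor that follows EOMES in deep-layer neurons, was at 0.554, 0.657 and 1.49 per 10000 in EOMES-only, double and NHLH1-only cells, and at 0.334, 0.325 and 0.790 in nuclei. BCHE, butyrylcholinesterase, was 3.40-fold and 2.72-fold higher. The EBF3 ratio of 8.49 in cells rested on 2 counts in the EOMES-only set, with an interval from 2.13 to 73.7, and was 3.44 in nuclei.

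Among layer genes, 0 of 12 were higher than in the reference and 1 lower (LDB2, 2.46-fold) in cells and 0 of 11 were called in nuclei, at medians of -0.01 and -0.16. Over all genes 1.68% were higher and 10.2% lower in cells, and 0.784% and 2.87% in nuclei. By these shares such counts say little about a list this short.

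Markers of neighboring identities were set against the reference, which holds those cell types, and against the radial glia-like and neuron-like sets. All 8 choroid plexus genes in cells and 5 of 7 in nuclei were at least 2-fold lower than in the reference (medians -2.69 and -1.14), beside 10.2% and 2.87% of all genes. Their summed level was 3.85 per 10000 in member cells against 22.6, and 13.7 in member nuclei against 28.1. The nuclear sum was uneven, since 120 of 227 member nuclei had 0 such counts and 1 nucleus held 17.4% of them. In cells 53 of 250 had 0 and 1 cell held 15.7%. Against the comparison sets the nuclear members were higher, since radial glia-like nuclei summed to 0.828 and neuron-like nuclei to 0.862 per 10000, and 4 of 4 genes compared were at least 2-fold higher in members than in either (median log2 4.02 and 3.59). In cells the sets summed to 2.72 and 2.58, and 1 of 4 genes was higher in members than in each. Background RNA summed to 22.2 in the cell library and 25.9 in the nuclear library. The part of choroid plexus RNA in the nuclear results was not tested. The transthyretin gene TTR was seen in 25.6% of thinned member cells and in 19.6% of both radial glia-like and neuron-like cells, against 90.0% of choroid plexus-like cells.

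Cortical hem genes were lower in 5 of 9 in cells and 1 of 6 in nuclei (medians -1.67 and -0.82), with the WNT amplifier RSPO2 4.13-fold and 4.89-fold lower. The share of all genes lower was 10.2% in cells and 2.87% in nuclei, so calls of 0 or 1 gene in this and the next lists say little by themselves. In nuclei 3 of 5 hem genes were higher in members than in radial glia-like and 3 of 5 than in neuron-like nuclei (medians 2.64 and 3.25), and in cells 2 of 7 with 1 lower and 3 of 7 (0.19 and 0.92). Outer radial glia genes were lower in 4 of 6 and 2 of 5 (medians -1.21 and -0.89), among them FAM107A and TNC. Their summed level was 8.30 per 10000 in member cells against 7.94 and 8.03 in member nuclei against 7.21, most of it from PTPRZ1, a receptor phosphatase, at 7.72 against 6.60 and 7.42 against 6.04. Non-neural genes were lower in 3 of 5 in cells and 0 of 1 in nuclei. Of inhibitory lineage genes 1 of 2 in cells and 1 of 3 in nuclei were lower while the others had too few counts, and of glial precursor genes 1 of 1 was lower in cells and 0 of 1 in nuclei. Against radial glia-like and neuron-like nuclei, the 1 inhibitory gene compared was higher in members (log2 4.87 and 2.89), as was the 1 glial precursor gene (2.21 and 2.24). In cells 0 of 1 and 0 of 2 were called. Outer radial glia genes were lower than in radial glia-like barcodes in 3 of 6 in cells and 4 of 6 in nuclei, with 1 higher in nuclei.

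Cajal-Retzius genes were split. EBF2, a transcription factor of early postmitotic cells, was 3.89-fold (3.61 to 4.19) higher in member cells and 3.43-fold (3.20 to 3.67) in member nuclei, the 1 call upward among 6 genes in each library. The defining genes of that type were not 2-fold higher than in the reference. RELN (reelin) was at 0.409 per 10000 in member cells against 0.557, with sub-libraries from 0.0739 to 1.75, and 4.37-fold lower in nuclei, and TP73 was at a ratio of 1.07 in cells and 0.298 (0.0807 to 0.769, 4 counts) in nuclei. CALB2 was at 0.686 and 0.922. LHX5 had 0 counts in members of both libraries and too few in the reference to be compared. In nuclei RELN and TP73 were the 2 genes called lower, and in cells none was, beside 2.87% and 10.2% of all genes. Against the comparison sets the list was higher, with 6 of 6 genes above radial glia-like cells (median log2 2.45) and 5 of 6 above neuron-like cells (1.33), and in nuclei 5 of 5 (4.46) and 3 of 5 with 1 lower (2.52). RELN was at 0.0938 and 0.169 per 10000 in radial glia-like and neuron-like cells and at 0.0166 and 0.195 in those nuclei.

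Genes of glycolysis and hypoxia were at medians of -0.40 and -0.38, with 2 of 10 lower in cells and 1 of 9 in nuclei and none higher. Immediate-early genes, which dissociation can induce, were lower in 2 of 7 and 1 of 6 (medians -0.44 and -0.25). Over all genes 10.2% were lower in cells and 2.87% in nuclei, with medians of -0.16 and -0.05, so counts of 1 or 2 in lists this short say little. Stress genes were at 0.26 and 0.15, with CHAC1, a glutathione-degrading enzyme of the unfolded protein response, 3.19-fold higher in cells as the 1 call of 7, and 0 of 6 called in nuclei.

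Members were unevenly spread over the wells of the first barcoding round, which could not be tied to conditions here. In the cell library 32 of 48 wells held a member. The share of passing barcodes that were members ran from 0 over a median of 2.04% to 11.3%, and the 5 wells with most members held 51.2% of them and 31.1% of passing cells, up to 33 members in 1 well. In the nuclear library 10 of 12 wells held a member, with shares from 0 over 1.60% to 3.52%, and 5 wells held 78.4% of members and 61.3% of passing nuclei, up to 46 members in 1 well. Over sub-libraries, which mix all wells, members numbered 16 to 45 in cells and 105 and 122 in nuclei. With the reference weighted to the wells of the members, 249 genes in cells and 102 in nuclei were 2-fold higher. What the wells with many members share was not tested.

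**Figure D5:**
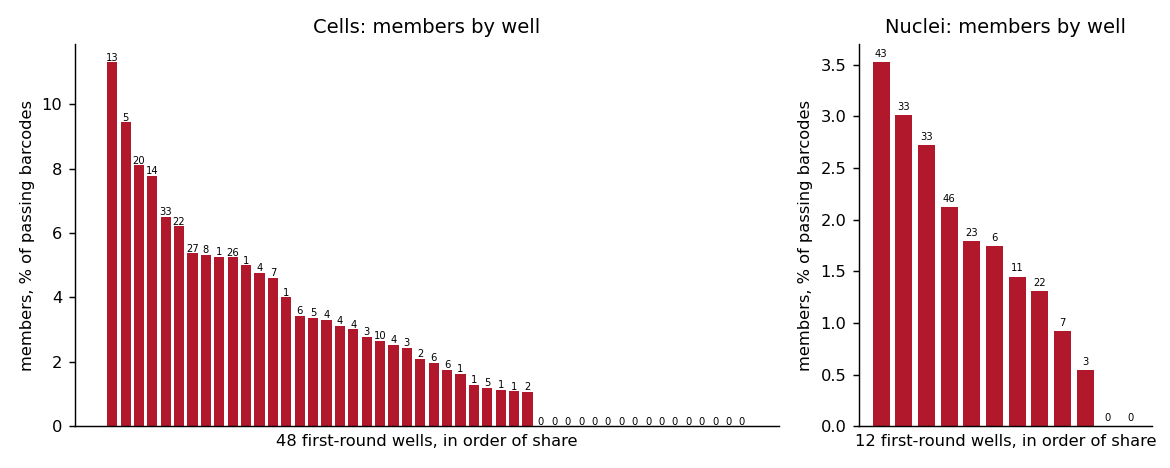
Members as a percentage of passing barcodes in each first-round well, wells ordered by share, with the number of members above each bar, for 48 wells of the cell library and 12 of the nuclear library. Shares reach 11.3% in cells and 3.52% in nuclei, and 16 and 2 wells hold no member.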

How the data were processed

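RNA of dissociated cells and of isolated nuclei was measured in 2 libraries by Parse Evercode split-pool barcoding, in which cells pass through wells that each add a barcode. Per the study's methods the authors ran the Parse pipeline on 8 and 2 sub-libraries, against GRCh38 in the submitters' processing notes. The deposited values are transcript counts per gene and barcode, unfiltered. The doublet calling of the study, and its removal of background RNA from the cell data, came later and are not in these counts. Whether counting used strand is not given in the sources used here, so overlapping and antisense genes may share counts.

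The design was written for 250 members per library, but only 227 nuclei met the marker rule. Counts of a set of barcodes were summed, divided by the summed transcripts and given per 10000. Each library is 1 sample, so no test was run: calls are ratios of at least 2 among genes with an expected count of at least 10, without pseudocount, and sub-libraries give technical spread only. Intervals are exact (Clopper-Pearson for shares, conditional binomial for ratios). A count of 0 was set at 3 counts for fold values. Comparison sets were the 250 highest scores for 6 markers each, with at least 4 detected for radial glia-like and at least 3 for the other sets, members left out. Shares were taken after each barcode was thinned to 2000 transcripts (seed 0). Scrublet marked no barcode, and leaving out the highest 5% (cells) or 3% (nuclei) of doublet scores was an alternative instead. The members, the 23 gene lists and the sets were chosen with earlier results of these data known. Named genes were the 15 highest and 10 lowest with a symbol, ranked by the ratio closest to 1 of the 2 libraries among genes past 2-fold the same way in both, genes of the lists, and for the EOMES and NHLH1 subsets the first 3 each way by the same ranking. Within the lists some genes between the extremes were named after their values were seen. Scripts ran scanpy 1.11.5, anndata 0.12.19, pandas 2.3.3, scipy 1.17.1, numpy 2.4.6 and matplotlib 3.10.9 under Python 3.11.15 and were tested on simulated data. Some genes are not reported here.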

Additional observations from a re-analysis of the deposited data

Results flagged for a closer look

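LINC00609, a long noncoding RNA, was the 1 gene called in opposite directions in the 2 libraries. In cells it was 2.30-fold higher in members (0.150 against 0.0652 per 10000), and in nuclei 2.12-fold lower (0.0238 against 0.0505), there on 6 counts. The difference between the libraries was not tested, since each is 1 sample. It stayed past 2-fold in 24 of 28 settings in cells and in 15 of 22 in nuclei.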

How the results depend on the processing

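In cells, 278 genes were higher and 1694 lower. These became 1865 and 3722 with an expected count of at least 1, 179 and 891 with at least 30, and 886 and 3689 at 1.5-fold, and centring on the median gave 433 higher. Leaving out each sub-library gave 252 to 277 higher and 1595 to 1724 lower. In nuclei, 106 higher and 388 lower became 1435 and 1493, 48 and 136, and 436 and 1319 under the same 3 settings. With 150 members they were 179 and 1149, and with every barcode weighted alike 232 and 1128. The nuclear higher count was 35 with at least 3 markers (32 members), 45 with EOMES (98 members) and 55 with NHLH1 (96 members) left out of the rule, and without a sub-library 71 to 89 higher and 365 to 418 lower.

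Newborn neuron genes higher in cells (5) became 3 with the higher depth limit, with NHLH1 or PPP1R17 left out and with the reference weighted to the wells of members, and 8 at 1.5-fold. In nuclei (1) they became 4 with 150 members or equal weights, 0 with the higher depth limit or NHLH1 or PPP1R17 left out, 5 at 1.5-fold, 3 without barcodes over 50000 transcripts, and 0 to 1 without a sub-library. Radial glia genes lower in cells (2) became 0 with 500 members or the higher depth limit, 1 with NHLH1 left out, 4 at 1.5-fold, and 2 to 3 without a sub-library. In nuclei (0) they became 5 with 150 members, 1 with at least 3 markers, without high doublet scores, with NHLH1 left out, without the well with most members or with weighted wells, 2 with NEUROG2 left out or without barcodes over 50000, 3 with equal weights or at 1.5-fold, and 0 to 1 without a sub-library. Notch ligand and modulator genes higher in cells (3) became 5 with centring or at 1.5-fold. In nuclei (3) they became 1 with 150 members, with NHLH1 left out or with an expected count of at least 30, 0 with at least 3 markers or EOMES left out, and 1 to 1 without a sub-library. S phase and G2/M genes higher in members numbered 0 under every alternative. As reported, 1.68% of all genes in cells and 0.784% in nuclei were higher, so 0 of 16 says little by itself.

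The thinned share of members with at least 2 G2/M genes, 16.8% in cells, became 22.2% with 500 members, 24.4% with the higher depth limit, 28.0% with NHLH1 left out, 59.2% without thinning and 11.6% when 3 genes were required. In nuclei, 22.9% became 16.3% with EOMES and 33.3% with NHLH1 left out, 38.8% without thinning and 16.7% with 3 genes. The ratio of median depths, 0.955 in cells, became 1.08 with 500 members or EOMES left out and 1.09 with at least 3 markers, and in nuclei 1.52 became 1.13 with 150 members and 1.23 with the higher depth limit, and was 1.35 to 1.58 without a sub-library. Among single genes, LINC02487 changed direction in nuclei with at least 3 markers (log2 -1.26, from 1.95, over 32 members), as did SOX2, which was not called (0.23, from -0.50). The causes were not tested. Under the alternatives 372 summary values stayed close and 72 moved, and 1493 gene values stayed within counting error, 236 moved past it and 1 changed direction while called. Leaving out barcodes over 50000 transcripts and weighting wells were chosen after seeing the data. No paired analysis was possible because each library is a single sample. With 227 eligible nuclei, taking up to 500 changed no nuclear member.

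In nuclei 195 of 227 members rested on 2 markers, and rare genes such as NEUROD4 had too few counts to be compared. Barcodes could not be tied to a condition, day or organoid, so members of CO, DISS and CONS could not be compared.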
